A study of Mus musculus with 20 samples.

Results

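Transcripts of genes that carry out mitosis and chromosome segregation were followed in mouse CD8 T cells over the first 3 days after stimulation. A list of 40 such genes was matched by symbol to the array, and 36 of them were found under a single symbol, out of 8251 genes on the array. Ccnb1, Bub1b, Espl1 and Hmmr had no such probe set and are not analysed here. Each gene was read from its brightest probe set. Of the 36 genes, 35 passed the filter on low values and entered the tests. Cenpe, a kinetochore motor, did not pass and lay between 10.4 and 132 MAS5 intensity units on all 20 arrays.

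The cells came from C57Bl6 mice aged 6 to 8 weeks that carry the OT-1 transgenic T cell receptor, so all share 1 antigen specificity, that of the OT-1 receptor. CD44lo CD8+ cells were taken from lymph nodes and enriched by negative selection. They were stimulated in vitro on latex microspheres that carried the peptide complex on H-2Kb together with B7-1 (Ag-B7), so no antigen-presenting cell was supplied. Ag-B7 was combined with murine rIL-12, with type I interferon (IFNa/b) or with trichostatin A (TSA, a histone deacetylase inhibitor), or was given alone. Every culture held human rIL-2, and the naive cells (0 h) were not cultured, so stimulated and naive cells differ in antigen, B7-1, IL-2 and culture at once. At 48 h there were 3 arrays with IL-12, 3 with IFNa/b and 4 with Ag-B7 alone, and naive cells had 3 arrays. The 24 h cultures with IL-12, with IFNa/b and with Ag-B7 alone had 1 array each, as did these 3 and the TSA culture at 72 h. The labels call the replicates biological.

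Progress through mitosis depends on Cdk1 bound to its cyclins, which starts chromosome condensation and spindle assembly. The spindle checkpoint delays anaphase until chromosomes are attached, and the anaphase promoting complex with Cdc20 then triggers their separation. Naive lymphocytes are quiescent, and these genes are known as late cell cycle genes that dividing cells switch on together.

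Naive arrays stood apart from the stimulated arrays in quality. Actin probe sets at the 3' and 5' ends of the transcript differed by a ratio of 1.13, 2.06 and 1.61 on naive replicates 1, 2 and 3, and by at most 1.15 on any stimulated array. Correlations between replicate arrays across genes were 0.948 to 0.966 within the stimulated groups and 0.827 to 0.932 among the naive arrays. The cells carried CD8 T cell identity transcripts throughout, with summed signals of the 7 measured markers of 46979 to 113258 on stimulated arrays and 65377 to 116939 on naive arrays. Markers of B, myeloid, NK, CD4, erythroid and stromal cells, 24 of 29 on the array, summed to 8443 to 14572 at 48 h and to 29676 to 43635 in naive cells. None of these markers was listed at 0. In bulk RNA, a larger share of dividing cells and more transcript per cell cannot be told apart.

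At 48 h, the mitosis genes were higher than in naive cells under every stimulus. Of 35 genes, 32 were called higher with IL-12, 30 with IFNa/b and 32 with Ag-B7 alone (limma, Benjamini-Hochberg adjusted p below 0.05 over 6279 genes). Among all tested genes the share called higher was 24.8% with IL-12, 25.3% with IFNa/b and 26.1% with Ag-B7 alone. The shares called lower were 34.0%, 33.1% and 35.6% in the same order, against 0, 0 and 1 of the mitosis genes. The median difference of the 35 genes was 2.74 with IL-12, 2.66 with IFNa/b and 2.73 with Ag-B7 alone on the log2(intensity + 46.4) scale, while the medians of all genes were -0.27, -0.25 and -0.23. Differences are given on that scale throughout. For genes dim in one group it gives a smaller change than the signals themselves. Arrays lay entirely above the naive arrays for 32 genes with IL-12, 30 with IFNa/b and 31 with Ag-B7 alone, against 25.6%, 26.9% and 24.4% of all genes. With naive replicates 2 and 3 both left out, 30, 30 and 31 mitosis genes were called, all higher, beside 1120, 1142 and 1126 of the 6279 tested genes. The 1 naive array left is then assumed to vary like the stimulated groups. Of the 15 tested markers of other cell types, 12 were lower with IL-12, 13 with IFNa/b and 12 with Ag-B7 alone, and their part in the result was not tested.

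**Figure D1:**
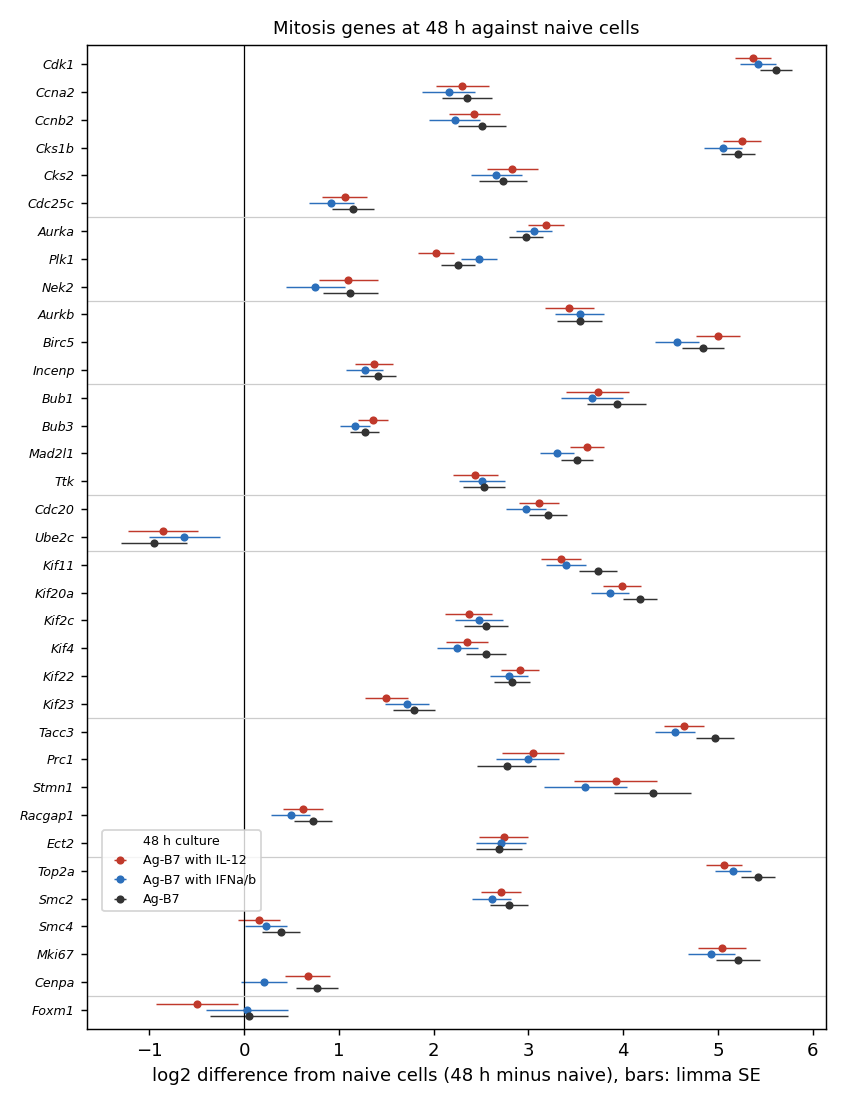
Differences of the 35 tested mitosis genes at 48 h from naive cells (x axis, log2 scale; bars are limma standard errors) with IL-12 (red), IFNa/b (blue) and Ag-B7 alone (black), grouped by role from the Cdk1 partners at the top to Foxm1 at the bottom. Cdk1, Cks1b, Top2a and Mki67 lie at about 5 under all 3 stimuli, while Ube2c lies below 0 and Smc4 and Foxm1 near it.

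Because most of these genes moved together, their promoters were read from RefSeq (GRCm38.p6, windows from 250 bases before to 50 bases after the start of transcription). The table held 35 windows for 32 of the 40 genes, and 28 of those 32 genes were on the array. Aurkb, Ccna2, Cdc25c, Foxm1, Incenp, Kif20a, Smc4 and Stmn1 had no window there. Motifs were searched on both strands, counting every overlap: CCAAT, which the factor NF-Y is known to bind, and the cell cycle homology region (CHR), written here with the letters TTTGAA, or with TTCGAA, which reads alike on both strands. The CCAAT box stood in 31 of the 35 windows (88.6%), against 37.4% of 32851 mouse promoters and 37.0% of the 8412 promoters of genes on the array. A CHR stood in 28 windows (80.0%), against 19.2% of all promoters and 14.6% of those of array genes. Both were found in 77.1% of the windows, against 7.5% and 6.0%. These matches describe letters in the windows and were not tested as binding sites.

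The 250 bases before the start are shown for 6 genes that the results below turn on, with CCAAT and CHR matches in capitals (ATTGG and TTCAAA are the same motifs on the other strand). Cdk1 (chr10:69352913-69353162, minus strand) and Top2a (chr11:99024190-99024439, minus strand) had the largest differences from naive cells with Ag-B7 alone on the log2(intensity + 46.4) scale. Ccnb2 (chr9:70421555-70421804, minus strand) and Cenpa (chr5:30666636-30666885, plus strand) rose between 24 h and 48 h. Birc5 (chr11:117848987-117849236, plus strand) fell between 48 h and 72 h, and Ube2c (chr2:164769679-164769928, plus strand) was the gene called lower than in naive cells.
Cdk1: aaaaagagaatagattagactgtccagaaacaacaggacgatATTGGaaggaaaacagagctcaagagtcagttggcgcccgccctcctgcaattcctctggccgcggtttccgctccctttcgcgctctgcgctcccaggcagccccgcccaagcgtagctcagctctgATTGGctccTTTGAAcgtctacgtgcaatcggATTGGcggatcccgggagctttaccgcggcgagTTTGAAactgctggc
Top2a: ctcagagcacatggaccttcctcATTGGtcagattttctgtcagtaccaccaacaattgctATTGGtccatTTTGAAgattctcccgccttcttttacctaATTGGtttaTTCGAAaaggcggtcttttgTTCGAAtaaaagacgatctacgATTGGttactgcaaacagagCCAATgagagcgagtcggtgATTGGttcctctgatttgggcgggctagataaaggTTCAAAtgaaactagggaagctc
Ccnb2: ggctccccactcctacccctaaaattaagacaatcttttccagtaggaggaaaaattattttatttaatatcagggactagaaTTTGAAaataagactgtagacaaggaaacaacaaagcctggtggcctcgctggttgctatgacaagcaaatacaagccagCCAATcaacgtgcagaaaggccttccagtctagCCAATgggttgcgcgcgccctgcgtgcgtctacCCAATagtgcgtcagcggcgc
Cenpa: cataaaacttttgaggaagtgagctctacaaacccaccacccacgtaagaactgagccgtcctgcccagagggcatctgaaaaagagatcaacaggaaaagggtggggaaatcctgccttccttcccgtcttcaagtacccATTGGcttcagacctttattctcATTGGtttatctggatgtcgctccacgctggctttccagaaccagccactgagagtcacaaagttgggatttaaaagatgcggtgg
Birc5: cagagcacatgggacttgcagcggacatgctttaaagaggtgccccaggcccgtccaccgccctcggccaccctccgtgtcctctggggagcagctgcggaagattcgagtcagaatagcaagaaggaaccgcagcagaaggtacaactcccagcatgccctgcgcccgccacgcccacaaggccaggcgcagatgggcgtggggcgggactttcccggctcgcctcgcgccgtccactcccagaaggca
Ube2c: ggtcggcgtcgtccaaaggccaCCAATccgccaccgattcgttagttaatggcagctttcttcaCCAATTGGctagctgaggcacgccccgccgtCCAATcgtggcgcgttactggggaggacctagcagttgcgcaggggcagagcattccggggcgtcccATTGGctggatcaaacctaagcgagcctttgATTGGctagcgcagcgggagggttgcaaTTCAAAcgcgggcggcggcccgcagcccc
The Ccnb2 stretch holds 3 CCAAT boxes, 87, 54 and 21 bases before the start. Top2a holds 6 CCAAT boxes and 4 CHR matches in its stretch, and Ube2c holds 6 CCAAT boxes and 1 CHR match. The Ccnb2 window also has a CHR 5 bases after the start, and the Cenpa window has a CHR 17 bases after the start. Birc5 holds neither motif in its window, and neither do Mad2l1 and Tacc3, although these 3 genes rose under every stimulus at 48 h.

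The site of E2F factors, which are known for driving genes of the step before DNA synthesis, was searched in 3 spellings. These were TTTGGCG, the close variant TTTCGCG, and the different core TTCCCGC. They were found in 5.7% of the windows, those of Cdk1 and Cks1b, against 6.7% of all promoters and 10.6% of those of array genes. None of the 3 kinds of motif stood in the windows of Birc5, Mad2l1 and Tacc3 (8.6% of the windows, against 47.2% and 48.6%).

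All 6 measured genes of Cdk1 and its partners were higher at 48 h under each stimulus. Cdk1, the kinase that drives entry into mitosis, had signals of 6991, 5338 and 7283 with IL-12, 6766, 6626 and 6676 with IFNa/b and 6755, 7313, 8278 and 8356 with Ag-B7 alone, against 121, 131 and 85.6 in naive cells. Its differences from naive cells were 5.37 ± 0.19 with IL-12, 5.42 ± 0.19 with IFNa/b and 5.61 ± 0.17 with Ag-B7 alone (limma standard errors). The last is a 48.9-fold ratio of values with 46.4 added, which is smaller than the ratio of the signals. On the log2(intensity + 46.4) scale no other gene of the list had a larger difference under any of the 3 stimuli, while by mean signals Tacc3 and Top2a had larger ratios. With Ag-B7 alone mean signals were 1685 against 8.7 in naive cells for Tacc3, 4208 against 54.2 for Top2a and 7675 against 112 for Cdk1.

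Cks1b, which encodes a small subunit that binds Cdk1, had 6834, 8001 and 6414 with IL-12, 6606, 5859 and 5978 with IFNa/b and 7286, 6987, 6703 and 6471 with Ag-B7 alone, against 205, 103 and 126 in naive cells. Its differences were 5.25 ± 0.20, 5.05 ± 0.20 and 5.21 ± 0.18. Cks2, a related subunit, had 12269, 13225 and 10349 with IL-12, 11692, 10834 and 9211 with IFNa/b and 13036, 10922, 10733 and 9843 with Ag-B7 alone, against 1743, 922 and 2662 in naive cells. Both genes were clear of the naive range on every 48 h array.

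The cyclins rose less on this scale. Ccna2 (cyclin A2) had 4885, 4344 and 4797 with IL-12, 4866, 4269 and 3627 with IFNa/b and 5355, 4944, 5005 and 4163 with Ag-B7 alone, against 506, 1542 and 953 in naive cells, differences of 2.30 ± 0.28, 2.16 ± 0.28 and 2.35 ± 0.26. Ccnb2 (cyclin B2) had 6156, 8412 and 8149 with IL-12, 6970, 7191 and 5421 with IFNa/b and 8348, 10182, 9025 and 5181 with Ag-B7 alone, against 990, 1976 and 1276 in naive cells. Cdc25c, a phosphatase that activates Cdk1, had 983, 1056 and 1010 with IL-12, 931, 914 and 904 with IFNa/b and 1193, 1084, 1251 and 855 with Ag-B7 alone, against 329, 618 and 486 in naive cells. Its differences of 1.06 ± 0.24, 0.92 ± 0.24 and 1.15 ± 0.22 were the smallest of the 6, and its arrays still did not overlap the naive arrays. A dimmer Cdc25c probe set gave larger differences, 2.02, 2.04 and 2.26.

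Mitotic kinases and the chromosomal passenger complex, which corrects faulty attachments of chromosomes to the spindle, rose in all 6 measured genes under each stimulus. Aurka, a kinase of the spindle poles, had 2677, 2532 and 2602 with IL-12, 2459, 2494 and 2227 with IFNa/b and 1962, 2736, 1967 and 2409 with Ag-B7 alone, against 262, 236 and 241 in naive cells. The differences were 3.18 ± 0.19, 3.06 ± 0.19 and 2.97 ± 0.18. Plk1, polo-like kinase 1, had 4076, 3383 and 4754 with IL-12, 5654, 5752 and 5267 with IFNa/b and 4168, 5103, 5811 and 4209 with Ag-B7 alone, against 851, 1150 and 896 in naive cells. Its differences were 2.02 ± 0.19, 2.48 ± 0.19 and 2.26 ± 0.18. Nek2, a centrosome kinase, had smaller ones, 1.10 ± 0.31, 0.75 ± 0.31 and 1.12 ± 0.29, and its arrays with IFNa/b (1389, 1359 and 1166) overlapped the naive arrays (417, 1179 and 854). That call with IFNa/b (adjusted p = 0.0463) was lost without naive replicate 1 (0.36) or 3 (0.84) and without each IFNa/b replicate in turn (0.71, 0.72 and 0.83). It was also lost with no filter and with only the 2 groups in the fit.

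Aurkb, the kinase of the passenger complex, had 2681, 2626 and 3195 with IL-12, 3028, 3189 and 2968 with IFNa/b and 3430, 2391, 3458 and 3102 with Ag-B7 alone, against 117, 263 and 329 in naive cells. Birc5 (survivin), its partner that is also known as an inhibitor of apoptosis, had 6470, 5887 and 5329 with IL-12, 5558, 4072 and 3621 with IFNa/b and 6886, 5659, 4669 and 4184 with Ag-B7 alone, against 179, 147 and 99.1 in naive cells. Its differences were 5.00 ± 0.23, 4.57 ± 0.23 and 4.84 ± 0.22, and those of Aurkb were 3.43 ± 0.26, 3.54 ± 0.26 and 3.54 ± 0.24. Incenp, the scaffold of the complex, moved by 1.37 ± 0.20, 1.27 ± 0.20 and 1.41 ± 0.19. The kinase and survivin thus differed more from naive cells than the scaffold on this scale.

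The 4 spindle checkpoint genes were higher under each stimulus. Bub1, a checkpoint kinase at kinetochores, had 2166, 1662 and 1619 with IL-12, 1550, 1657 and 1986 with IFNa/b and 2146, 2021, 1778 and 2405 with Ag-B7 alone, against 93.9, 216 and 27.1 in naive cells. Its differences were 3.73 ± 0.33, 3.67 ± 0.33 and 3.93 ± 0.31. Mad2l1 (Mad2, which holds back Cdc20) differed by 3.62 ± 0.18, 3.30 ± 0.18 and 3.51 ± 0.17, and Ttk (the kinase Mps1) by 2.44 ± 0.24, 2.51 ± 0.24 and 2.53 ± 0.22. Bub3, a partner of Bub1, differed by 1.36 ± 0.16, 1.17 ± 0.16 and 1.27 ± 0.15. No array of these 4 genes overlapped the naive arrays.

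Cdc20, the activator of the anaphase promoting complex, had 8323, 7532 and 10704 with IL-12, 9256, 7502 and 7196 with IFNa/b and 8565, 9108, 11274 and 8704 with Ag-B7 alone, against 770, 1308 and 910 in naive cells. Its differences were 3.11 ± 0.21, 2.97 ± 0.21 and 3.21 ± 0.20. Ube2c, a ubiquitin-conjugating enzyme of the same complex, went against the other genes. It had 238, 303 and 519 with IL-12, 322, 493 and 409 with IFNa/b and 250, 340, 470 and 240 with Ag-B7 alone, against 454, 1161 and 509 in naive cells. The difference was -0.95 ± 0.35 with Ag-B7 alone (adjusted p = 0.0257), -0.86 ± 0.37 with IL-12 (adjusted p = 0.0553) and -0.63 ± 0.37 with IFNa/b (adjusted p = 0.151), and groups overlapped in each case. The call with Ag-B7 alone was lost without naive replicate 2 (-0.55, adjusted p = 0.167), without Ag-B7 replicate 1 (-0.85, adjusted p = 0.064) and without Ag-B7 replicate 4 (-0.84, adjusted p = 0.0666). It was also lost after quantile normalization (-0.48) and median centring (-0.30), and the difference was 0.63 with scaling to spiked-in controls. The only Ube2c probe set carries the suffix r, which the array's maker gives to sets designed under relaxed rules, as does the only Kif22 probe set, whose difference was 2.83 with Ag-B7 alone.

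Mitotic kinesins, motors that build and move the spindle, were higher in 6 of 6 genes under each stimulus. Kif11 (Eg5, which pushes the spindle poles apart) had 2294, 1575 and 2320 with IL-12, 1999, 2089 and 2271 with IFNa/b and 2511, 2810, 2486 and 2926 with Ag-B7 alone, against 167, 127 and 188 in naive cells. The differences were 3.34 ± 0.21, 3.40 ± 0.21 and 3.73 ± 0.20. Kif20a, a motor of cytokinesis, had 4985, 5621 and 6050 with IL-12, 5290, 5101 and 4759 with IFNa/b and 6540, 5963, 7418 and 5563 with Ag-B7 alone, against 348, 368 and 219 in naive cells. The differences were 3.99 ± 0.20, 3.86 ± 0.20 and 4.18 ± 0.18. Kif22, Kif2c and Kif4, motors that act on chromosomes and microtubule ends, differed by 2.91, 2.37 and 2.35 with IL-12, by 2.79, 2.48 and 2.25 with IFNa/b and by 2.83, 2.55 and 2.55 with Ag-B7 alone. Kif23, a midzone motor of cytokinesis, had the smallest differences of the family, 1.50 ± 0.23, 1.72 ± 0.23 and 1.79 ± 0.22.

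Spindle and cytokinesis factors rose in 5 of 5 genes with IL-12, 4 of 5 with IFNa/b and 5 of 5 with Ag-B7 alone. Tacc3, which stabilises spindle microtubules, had 1353, 1278 and 1331 with IL-12, 1323, 1155 and 1244 with IFNa/b and 1639, 1950, 1611 and 1542 with Ag-B7 alone, against 10.2, 11.2 and 4.6 in naive cells. Its naive signals lay far below the added 46.4, so the differences of 4.64 ± 0.21, 4.55 ± 0.21 and 4.97 ± 0.20 understate the ratio of the signals. Stmn1 (stathmin, a microtubule destabiliser) had 11589, 11989 and 9951 with IL-12, 10256, 7946 and 8581 with IFNa/b and 19411, 14655, 13997 and 11478 with Ag-B7 alone, against 815, 217 and 1724 in naive cells. Its naive arrays spread widely, and the differences were 3.92 ± 0.44, 3.60 ± 0.44 and 4.31 ± 0.41. Prc1, which bundles midzone microtubules, differed by 3.05, 2.99 and 2.77, and Ect2, which is needed for cytokinesis, by 2.74, 2.71 and 2.69.

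Racgap1, the partner of Kif23 in the midzone, was the exception among these factors. It had 1580, 1914 and 1636 with IL-12, 1629, 1686 and 1355 with IFNa/b and 2471, 1749, 1660 and 1587 with Ag-B7 alone, against 1144, 1205 and 938 in naive cells. Every 48 h array was above the naive arrays, with differences of 0.62 ± 0.21 (adjusted p = 0.0179), 0.49 ± 0.21 (adjusted p = 0.0541, not called) and 0.73 ± 0.20 (adjusted p = 0.00442). The IL-12 call was lost without naive replicate 3 (0.52, adjusted p = 0.0692) and without IL-12 replicate 2 (0.54, adjusted p = 0.0672). With naive replicates 2 and 3 both left out, the calls with IL-12 and with Ag-B7 alone were lost (differences of 0.56 and 0.66).

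Chromosome and centromere genes fell into 2 kinds. Top2a, the topoisomerase that untangles sister chromatids, had 3387, 3185 and 3207 with IL-12, 3206, 3480 and 3821 with IFNa/b and 4101, 4554, 4044 and 4134 with Ag-B7 alone, against 31.3, 67.0 and 64.1 in naive cells. Mki67, the antigen Ki-67 used to mark cycling cells, had 5687, 3579 and 4696 with IL-12, 3275, 4961 and 4713 with IFNa/b and 6850, 4544, 4209 and 5338 with Ag-B7 alone, against 121, 97.8 and 68.4 in naive cells. The Top2a differences were 5.06 ± 0.19, 5.16 ± 0.19 and 5.42 ± 0.18, and the Mki67 differences 5.04 ± 0.25, 4.93 ± 0.25 and 5.21 ± 0.23. Smc2, a condensin subunit, differed by 2.71, 2.61 and 2.79.

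Its condensin partner Smc4 was already bright in naive cells and was not called. Smc4 had 8870, 8561 and 7897 with IL-12, 8072, 8568 and 10104 with IFNa/b and 11619, 8636, 10073 and 9491 with Ag-B7 alone, against 9954, 5108 and 8477 in naive cells. The groups overlapped, and the differences were 0.16 ± 0.22 (adjusted p = 0.537), 0.23 ± 0.22 (adjusted p = 0.364) and 0.39 ± 0.20 (adjusted p = 0.105). Cenpa, the histone H3 variant that marks centromeres, had 1861, 2304 and 1954 with IL-12, 1518, 1651 and 1251 with IFNa/b and 2825, 2036, 2568 and 1504 with Ag-B7 alone, against 1205, 1530 and 1072 in naive cells. It was called higher with IL-12 (0.67 ± 0.24, adjusted p = 0.022) and with Ag-B7 alone (0.77 ± 0.22, adjusted p = 0.00679) and not with IFNa/b (0.21 ± 0.24, adjusted p = 0.444). The IL-12 call was lost without naive replicate 3 (0.57, adjusted p = 0.0813) and without IL-12 replicate 2 (0.59, adjusted p = 0.0783).

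Foxm1, a transcription factor known to drive many of these genes, was not called by its brightest probe set. That probe set had 1682, 1194 and 1282 with IL-12, 1570, 2683 and 1932 with IFNa/b and 999, 2578, 2881 and 2308 with Ag-B7 alone, against 1669, 4429 and 1013 in naive cells. The naive values spread from 1013 to 4429, and the differences were -0.50 ± 0.43 (adjusted p = 0.323), 0.03 ± 0.43 (adjusted p = 0.95) and 0.05 ± 0.41 (adjusted p = 0.918). The other, dimmer Foxm1 probe set gave differences of 2.49, 2.55 and 2.45, so the 2 probe sets disagree in size and, with IL-12, in sign.

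Such disagreement was looked for in all 10 genes with several probe sets. With Ag-B7 alone, 8 of their 12 dimmer probe sets had the sign of the brightest one and 4 had the opposite sign. Those with the opposite sign were dimmer sets of Mki67 (-1.75), Stmn1 (-0.55), Plk1 (-0.16) and Bub3 (-0.03). The sets of Stmn1 and Bub3 did not pass the filter on low values. A further Plk1 set gave 3.60 with Ag-B7 alone. Sets of the same sign could also differ in size with Ag-B7 alone. The dimmer set of Cdc25c gave 2.26 against 1.15 for the brightest, and that of Incenp 0.42 against 1.41. The dimmer sets of Bub1 gave 2.86 and 1.29 against 3.93, while that of Kif20a gave 4.10 against 4.18.

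Other mitosis genes, a list of 82 with 51 on the array and 50 tested, were called higher in 36 cases with IL-12, 36 with IFNa/b and 39 with Ag-B7 alone, and lower in 0. Kpna2, an importin, had the largest difference under each stimulus (4.40 ± 0.24, 4.40 ± 0.24 and 4.24 ± 0.22). With Ag-B7 alone it was followed by the condensin subunit Ncaph (3.74 ± 0.24) and the replication inhibitor geminin, Gmnn (3.61 ± 0.27). With IL-12 it was followed by gamma-tubulin, Tubg1 (3.54 ± 0.23), and Ncaph (3.51 ± 0.25), and with IFNa/b by Tubg1 (3.40 ± 0.23) and the checkpoint factor Trip13 (3.40 ± 0.34). The median over the 50 genes was 1.58, 1.48 and 1.54.

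**Figure D2:**
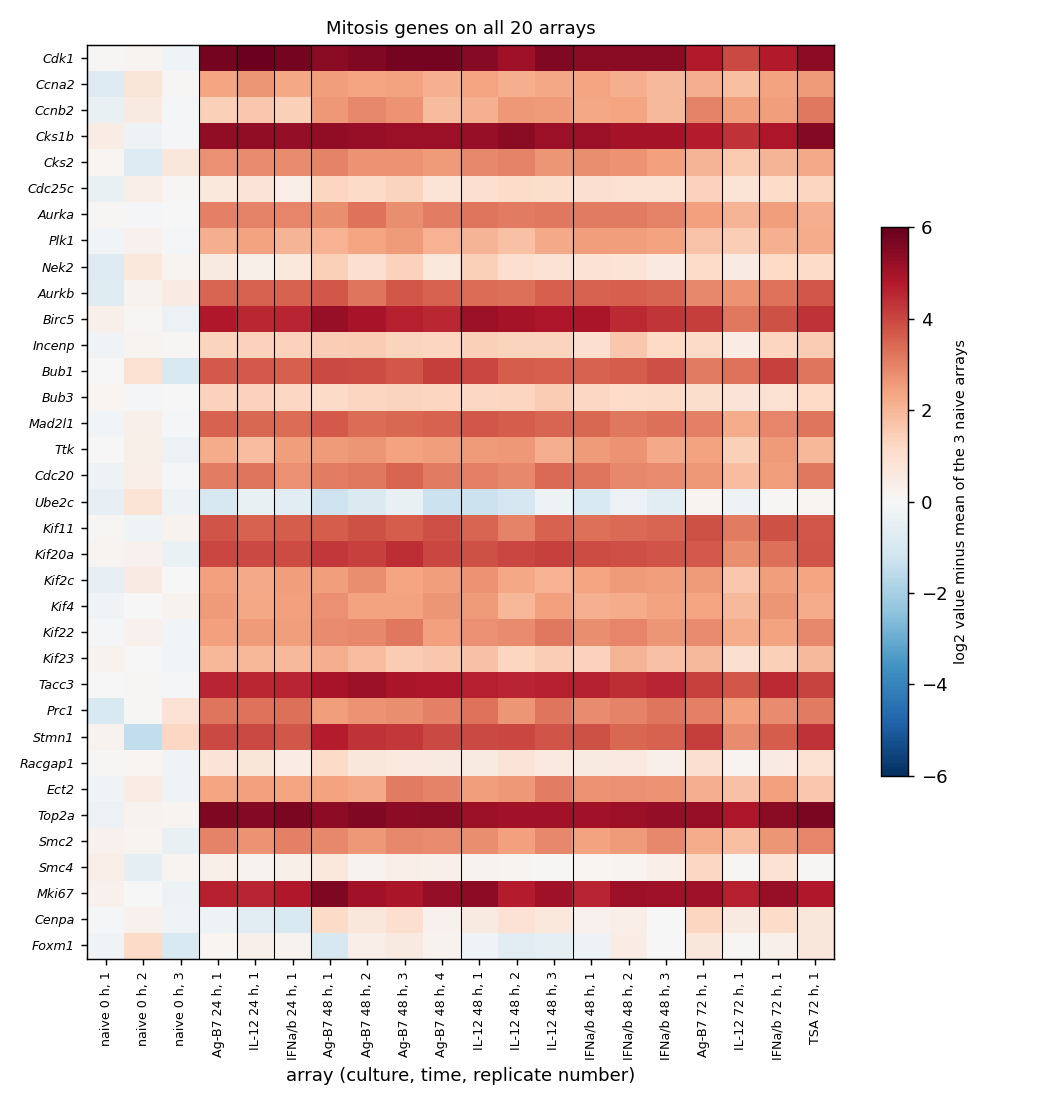
Log2 values of the 35 genes (rows, by role) on all 20 arrays (columns, by time and culture), each minus the mean of the 3 naive arrays, in red where higher and in blue where lower. The 17 stimulated arrays are red for most rows, Ube2c, Smc4, Cenpa and Foxm1 stay near white, and the IL-12 array at 72 h is paler than the other arrays at 72 h.

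The balance of all calls against naive cells depended on how arrays were scaled, while the called mitosis genes kept their direction except for Ube2c with Ag-B7 alone. With IL-12, 1559 genes were higher and 2135 lower as deposited, 1860 and 1575 after quantile normalization, 2402 and 920 after median centring and 3244 and 120 with spiked-in controls. With IFNa/b the counts in the same order were 1587 and 2077, 1864 and 1550, 2451 and 896, and 3817 and 72. With Ag-B7 alone they were 1640 and 2236, 1941 and 1635, 2555 and 1001, and 3781 and 95. Under these 3 scalings the median of all genes with Ag-B7 alone moved to 0.04, 0.41 and 1.30, and that of the mitosis genes to 3.11, 3.38 and 4.20.

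Adding a cytokine did not change any mitosis gene past the threshold at 48 h. With IL-12 against Ag-B7 alone, 0 of 35 genes were called (0.382% of all genes were higher and 0.239% lower), and 0 had an unadjusted p below 0.05. With IFNa/b against Ag-B7 alone, 0 were called (0.414% of all genes higher, 0.0159% lower), and 2, Cenpa and Tacc3, had an unadjusted p below 0.05. Between IL-12 and IFNa/b, 0 were called (0.287% of all genes higher with IL-12, 0.653% lower), and 1, Plk1, had an unadjusted p below 0.05. Over all 6279 genes, an unadjusted p below 0.05 was seen for 364, 286 and 303 in the same order of comparisons. These counts are from limma, and the first 2 comparisons share the Ag-B7 arrays. Over all genes, 24 were higher and 15 lower with IL-12 than with Ag-B7 alone as deposited, 17 and 6 after median centring and 13 and 3 with spiked-in controls.

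The intervals leave room for moderate differences. Over the 35 genes, the 95% intervals of the difference reached from -1.41 to 0.95 for IL-12 against Ag-B7 alone, from -1.58 to 1.05 for IFNa/b against Ag-B7 alone and from -1.45 to 1.25 for IL-12 against IFNa/b. The median difference was -0.09, -0.19 and 0.10, beside -0.01, 0.00 and -0.01 over all genes. With IL-12 25 of 35 genes were below Ag-B7 alone (3233 of all 6279) and with IFNa/b 30 of 35 (3111 of all 6279). Cdk1 differed by -0.24 (interval -0.61 to 0.13) with IL-12 and by -0.19 (interval -0.56 to 0.18) with IFNa/b.

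The 3 largest differences with IL-12 were Foxm1 at -0.56 ± 0.41, Stmn1 at -0.39 ± 0.41 and Kif11 at -0.39 ± 0.20 (adjusted p = 0.998, 0.998 and 0.943). With IFNa/b they were Stmn1 at -0.72 ± 0.41, Cenpa at -0.55 ± 0.22 and Tacc3 at -0.42 ± 0.20 (adjusted p = 1, 0.831 and 1). Between IL-12 and IFNa/b they were Foxm1 at -0.54 ± 0.43, Plk1 at -0.46 ± 0.19 and Cenpa at 0.46 ± 0.24 (adjusted p = 0.999, 0.835 and 0.999). The arrays of Kif11, Tacc3 and Top2a with IL-12 all lay below those with Ag-B7 alone, 3 of 35 genes against 3.62% of all genes. With IFNa/b this held for Kif11, Kif20a, Tacc3, Stmn1 and Top2a, 5 of 35 genes against 3.46%. With IL-12 against IFNa/b, Cdc25c, Aurka, Nek2, Bub3, Mad2l1 and Cenpa lay above on all arrays, 6 of 35 genes against 6.05% of all genes, and Plk1 lay below, 1 of 35 against 6.59%.

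Most of the genes were already above their naive values at 24 h. At that time there was 1 array per stimulus, so the 3 arrays are given as values with no test. All 3 lay above all naive arrays for 29 of 35 genes, against 29.0% of all genes. The median difference from naive cells over the 35 genes was 2.51, and -0.33 over all genes. Cdk1 had 9248 with IL-12, 8502 with IFNa/b and 8497 with Ag-B7 alone, and Top2a had 4532, 4881 and 4777. Both were higher at 24 h than the mean at 48 h under each stimulus. Cdc25c, Nek2, Ube2c, Smc4 and Foxm1 overlapped the naive arrays, and Cenpa lay below them.

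Among the others with values for each culture at 24 h, in the order IL-12, IFNa/b and Ag-B7 alone, Ccna2 had 5867, 4775 and 4939, Cks1b had 7510, 7253 and 7470, and Cks2 had 11742, 11728 and 11275. Aurka had 2246, 2182 and 2341, Aurkb 3011, 3026 and 2961, Birc5 4256, 4374 and 5083, and Bub1 1726, 1652 and 1744. Plk1 had 5373, 4082 and 4474, Cdc20 9285, 6721 and 8536, Kif11 2338, 2485 and 2771, and Kif20a 5476, 5270 and 5518. In each of these genes the 3 cultures lay within 2-fold of each other. For Stmn1 the values were 11323, 9819 and 11263, for Tacc3 1237, 1250 and 1240, for Mki67 3322, 3874 and 3493 and for Foxm1 2423, 2262 and 2117. Past 2-fold against Ag-B7 alone at 24 h there were 0 mitosis genes with IL-12 (2.15% of all genes higher, 1.27% lower) and 0 with IFNa/b (1.69% higher, 1.21% lower).

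Between 24 h and 48 h few mitosis genes moved further. In a fit of 16 arrays with the stimulus as a block, 3 of 35 genes were called higher at 48 h than at 24 h (6.90% of all genes) and 1 lower (6.04% of all genes). The fit assumes that the 3 stimuli share each time difference, and 24 h and 72 h had 1 array per stimulus. The median difference was 0.03 over the 35 genes and 0.03 over all genes. Cenpa, at 1251 to 2825 on the 10 arrays at 48 h against 754 with IL-12, 640 with IFNa/b and 1007 with Ag-B7 alone at 24 h, rose by 1.19 ± 0.18 (adjusted p = 0.000484). All 48 h arrays were above all 24 h arrays, and this call held in each of 22 alternatives. Ccnb2, at 5181 to 10182 at 48 h against 4303, 3725 and 3679 at 24 h, rose by 0.90 ± 0.17 (adjusted p = 0.00223). That call was lost in 1 of 22 alternatives, scaling to spiked-in controls (0.64, adjusted p = 0.0754).

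Cdc25c rose by 0.45 ± 0.14 (adjusted p = 0.0436), with 855 to 1251 at 48 h against 812, 617 and 754 at 24 h. That call was lost in 17 of 22 alternatives, in each with the same sign. Top2a fell by 0.37 on the log2 scale (SE 0.11, adjusted p = 0.0317), with 3185 to 4554 at 48 h against 4532, 4881 and 4777 at 24 h, and this call was lost in 7 of 22. Cdk1 was not called (-0.33 ± 0.14, adjusted p = 0.124), although each of its 48 h arrays lay below its 24 h arrays. Of the 50 other mitosis genes, 3 were higher at 48 h, the phosphatase Cdkn3 (2.05 ± 0.37), the spindle factor Dlgap5 (0.83 ± 0.16) and Cdc16, a subunit of the anaphase promoting complex (0.50 ± 0.16). The phosphatase Cdc25a (-0.81 ± 0.19) and the chromatin-bound exchange factor Rcc1 (-0.79 ± 0.19) were lower. After quantile normalization 2 mitosis genes were higher and 0 lower, and with spiked-in controls 1 and 0. Over all genes the counts were 433 higher and 379 lower as deposited, 230 and 517 after median centring and 93 and 182 with spiked-in controls.

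**Figure D3:**
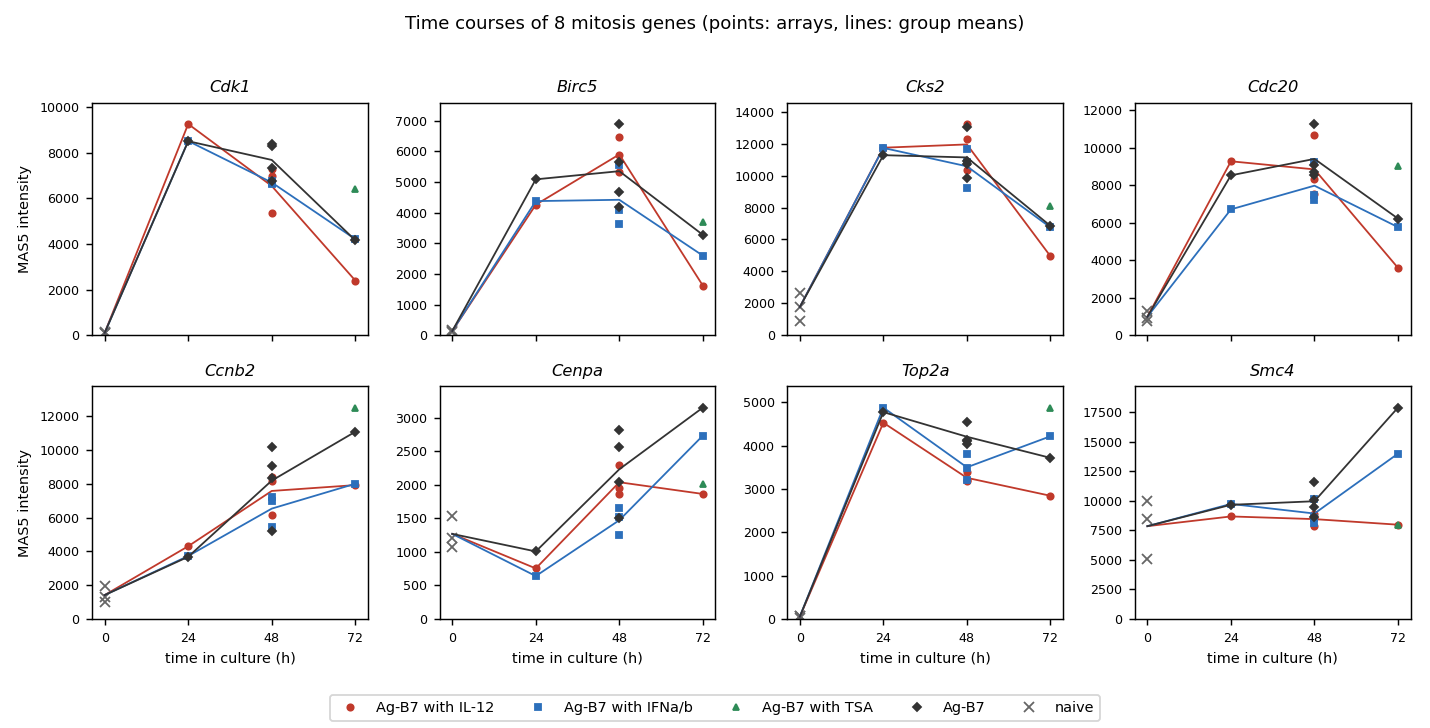
MAS5 intensity (y axis, from 0, one scale per panel) against time in culture (x axis, h) for 8 genes, with points for arrays and lines through group means, in red for IL-12, blue for IFNa/b, green for TSA, black for Ag-B7 alone and grey crosses for naive cells. Cdk1, Birc5, Cks2 and Cdc20 have their lowest stimulated value on the IL-12 array at 72 h, Ccnb2 and Cenpa climb between 24 h and 48 h, and Smc4 reaches 17871 with Ag-B7 alone at 72 h.

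By 72 h many of the genes had fallen from their 48 h level. The median differences of the cultures were unlike, but single 72 h arrays cannot show that they depend on the stimulus. Within each culture the median difference was -0.61 with IL-12, 0.02 with IFNa/b and -0.19 with Ag-B7 alone, from 1 array each at 72 h. In the same fit, which assumes a shared time difference, 14 of 35 genes were called lower at 72 h than at 48 h. This compares with 15.9% of all genes, and 2 were called higher, against 20.3% of all genes. The median difference in this fit was -0.35 over the 35 genes and 0.15 over all genes. With median centring 22 genes were lower and 0 higher, while the median of all genes moved to -0.12. With spiked-in controls 7 were lower and 0 higher. Over all genes, 1275 were higher and 998 lower as deposited, against 521 and 1509 after median centring and 665 and 478 with spiked-in controls. The markers of other cell types summed to 11897 to 21920 at 72 h and to 8443 to 14572 at 48 h, and their part in the differences was not tested.

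Every group of the list other than its transcription factor had at least 1 called fall. Among Cdk1 and its partners, Cdk1 fell by 0.98 (SE 0.14, adjusted p = 2.84e-05), Cks2 by 0.86 (SE 0.12, adjusted p = 4.12e-05) and Cks1b by 0.55 (SE 0.11, adjusted p = 0.000982). Cdk1 had 2400 with IL-12, 4211 with IFNa/b and 4160 with Ag-B7 alone at 72 h, against 5338 to 8356 at 48 h, and Cks2 had 4956, 6757 and 6851, against 9211 to 13225. Neither gene's 72 h arrays overlapped its 48 h arrays. The cyclins did not pass the threshold. Ccna2 had 3267, 5007 and 4301 at 72 h and differed by -0.15 ± 0.13, and Ccnb2 had 7918, 7998 and 11073 and differed by 0.29 ± 0.17. Cdc25c differed by 0.07 ± 0.14, with 850, 1066 and 1301 at 72 h.

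In the passenger complex Birc5 fell by 1.07 (SE 0.19, adjusted p = 0.000291), the largest fall of the 35 genes, with 1622, 2597 and 3275 at 72 h against 3621 to 6886 at 48 h. Aurkb fell by 0.57 (SE 0.13) with 1691, 2487 and 1901 at 72 h, and Incenp was not called (-0.40 ± 0.15, adjusted p = 0.051). Of the mitotic kinases, Aurka fell by 0.71 (SE 0.13) to 1170, 1643 and 1565 at 72 h, and Plk1 fell by 0.48 (SE 0.15) to 2753, 4376 and 3263. Of the checkpoint genes, Mad2l1 fell by 0.74 (SE 0.15) and Bub3 by 0.35 (SE 0.10), while Bub1 was not called (-0.30 ± 0.18), with 1267, 2328 and 1169 at 72 h. The call of Plk1 was lost in 5 of 22 alternatives and that of Bub3 in 4, both also without the IL-12 cultures. Cdc20 fell by 0.77 (SE 0.15), with 3602, 5773 and 6230 at 72 h against 7196 to 11274 at 48 h.

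Of the 6 kinesins, Kif20a was called, with a fall of 0.75 (SE 0.13) and values of 2373, 3413 and 4481 at 72 h. Kif11 was not called (0.09 ± 0.14) and had 1709, 2856 and 2838. Tacc3 fell by 0.63 (SE 0.15) to 670, 1181 and 907, Ect2 by 0.58 (SE 0.18) and Smc2 by 0.47 (SE 0.15). With IFNa/b, Tacc3 and Smc2 lay within their 48 h range at 72 h (differences of -0.07 and 0.06). The calls of Tacc3 and Ect2 were each lost in 3 of 22 alternatives and that of Smc2 in 4, in each case also without the IL-12 cultures. Stmn1, with 5208, 9107 and 12854, did not pass the threshold (-0.41 ± 0.18, adjusted p = 0.0844). Top2a (2845, 4219 and 3721) and Mki67 (3459, 5288 and 4747) did not pass the threshold, with differences of -0.04 ± 0.11 and -0.07 ± 0.17.

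Ube2c and Smc4 were the genes called higher at 72 h. Ube2c had 518, 676 and 724 at 72 h against 238 to 519 at 48 h and rose by 0.78 ± 0.23 (adjusted p = 0.0121). Smc4 had 7971 with IL-12, 13979 with IFNa/b and 17871 with Ag-B7 alone, against 7897 to 11619 at 48 h, and rose by 0.48 ± 0.14 (adjusted p = 0.0131). Both calls were lost without the cultures with IFNa/b, when 16 mitosis genes were lower and 0 higher, and without those with Ag-B7 alone, when 12 were lower and 0 higher. Without the IL-12 cultures 9 were lower and 3 higher, and the median of the 35 genes was -0.08. Of the 6279 tested genes, 813 were lower and 833 higher without IFNa/b, 721 and 734 without Ag-B7 alone, and 742 and 807 without IL-12. Cenpa, with 1865, 2735 and 3153, and Foxm1, with 2094, 2433 and 3179, were not called (0.43 ± 0.18 and 0.49 ± 0.25).

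All 72 h arrays lay below all 48 h arrays for 9 of 35 genes, Cdk1, Cks1b, Cks2, Aurka, Birc5, Bub3, Mad2l1, Cdc20 and Kif20a, against 10.1% of all genes. Birc5, Cdk1, Cks2, Cdc20, Kif20a, Mad2l1 and Aurka, 7 of the 16 called genes, kept their call in each of 22 alternatives. Of the 50 other mitosis genes, 20 were lower at 72 h and 1 higher, with a median of -0.26. The largest falls were Rcc1 (-1.66 ± 0.19), Gmnn (-1.19 ± 0.20), Tubg1 (-1.15 ± 0.18), the kinesin Kifc1 (-1.02 ± 0.32) and Kpna2 (-0.90 ± 0.17). The cohesin subunit Stag2 was the 1 that rose (0.35 ± 0.12).

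**Figure D4:**
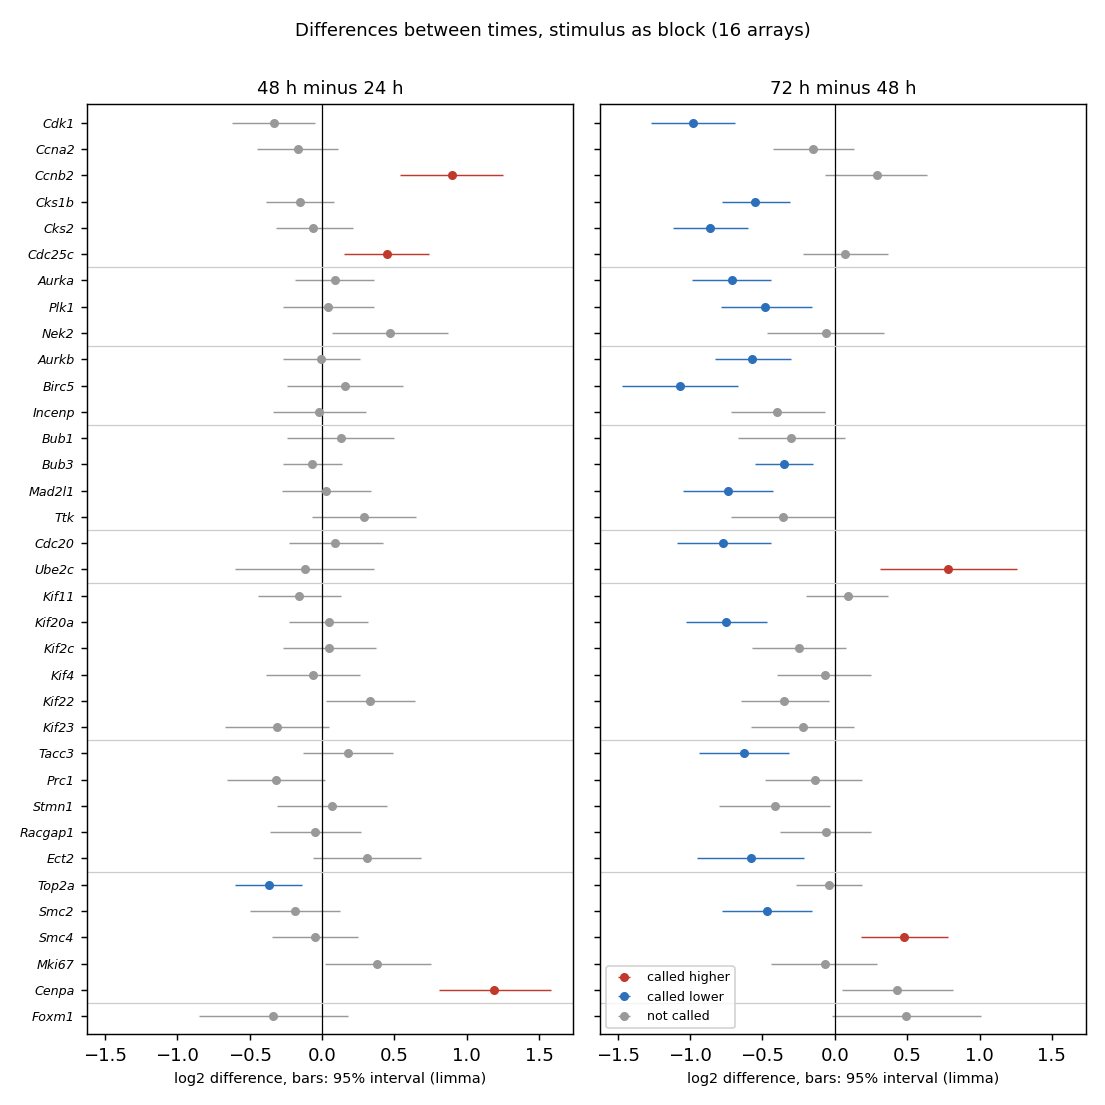
Differences between times for the 35 genes (x axis, log2 scale; bars are 95% intervals of limma) for 48 h minus 24 h (left) and 72 h minus 48 h (right), in red where called higher, in blue where called lower and in grey where not called. The left panel has 3 red points and 1 blue point, and the right panel has 14 blue points and 2 red points.

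Each culture had 1 array at 72 h, which was set against the 48 h arrays of the same culture. The 72 h array with IL-12 lay below all its 48 h arrays for 29 of 35 genes (26.6% of all genes) and above them for 1 (40.9%), with a median difference of -0.61. With IFNa/b it lay below for 13 genes (27.0%) and above for 12 (38.0%), with a median of 0.02. With Ag-B7 alone it lay below for 19 (24.9%) and above for 6 (36.3%), with a median of -0.19. The medians of all genes were 0.16, 0.10 and 0.17. Below under each of the 3 stimuli were 12 genes, against 13.8% of all genes, namely Cdk1, Cks1b, Cks2, Aurka, Plk1, Aurkb, Birc5, Bub3, Mad2l1, Cdc20, Kif20a and Ect2.

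Whether the 72 h minus 48 h difference depended on the stimulus was tested in a fit with a mean for each group, chosen after the values were seen. It assumes that the lone 72 h arrays vary like the replicated groups. For IL-12 against Ag-B7 cultures, 0 of 35 genes passed (3 of all genes, 0.0478%), and 7 had an unadjusted p below 0.05 (4.7% of all genes). In that comparison 33 of 35 differences were negative, with a median of -0.54 beside -0.02 over all genes. The largest were Birc5 at -1.15 ± 0.40, Smc4 at -0.93 ± 0.28 and Mad2l1 at -0.92 ± 0.28 (adjusted p = 0.833, 0.668 and 0.668). For IFNa/b against Ag-B7 cultures, 0 passed in limma (0 of all genes). An unadjusted p below 0.05 was seen for 2, Bub1 (1.23 ± 0.35) and Tacc3 (0.79 ± 0.32), beside 3.7% of all genes.

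At 72 h the cultures can be set side by side as 1 array each, with no replicate check. With IL-12, 34 of 35 genes were below Ag-B7 alone (3261 of all 6279), with a median of -0.58 beside -0.02 over all genes. Past 2-fold, 2 were lower, Stmn1 (-1.30) and Smc4 (-1.16), and 0 higher, against 4.14% and 5.22% of all genes. The 1 gene above Ag-B7 alone was Bub1 (0.11). The median log2 value over the 35 genes was 10.90 on the IL-12 array, 11.44 on the IFNa/b array, 11.79 on the TSA array and 11.64 on the Ag-B7 array, while the median over all genes was 9.84, 9.87, 9.82 and 9.86. The actin ratio of the IL-12 array was 1.04.

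With IFNa/b the median difference from Ag-B7 alone at 72 h was -0.02, and 0 genes were past 2-fold (3.93% of all genes higher, 3.57% lower). Bub1 came closest at 0.97. With TSA the median difference from Ag-B7 alone was 0.07. Past 2-fold was 1 gene, Smc4, at -1.17 (8.97% of all genes lower), and 0 were higher (7.09%). With scaling to spiked-in controls 0 were lower and 2 higher. Cdk1 had 6385 with TSA against 4160 with Ag-B7 alone, Cks1b 8488 against 4763, Aurkb 3496 against 1901 and Smc4 7942 against 17871.

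Most of the genes were higher on the TSA array than on the IL-12 array. Of 35 genes, 32 were higher with TSA than with IL-12 (3237 of all 6279), and the median difference was 0.66, beside 0.02 over all genes. Past 2-fold higher were 8 genes (8.60% of all genes) and lower 0 (9.87%). The largest were Stmn1 (1.51, with 14923 against 5208), Cdk1 (1.39) and Cdc20 (1.32, with 9031 against 3602). Of the 50 other mitosis genes, 14 were past 2-fold higher and 0 lower. Against IFNa/b, the TSA array had a median difference of 0.26, with 0 genes past 2-fold higher (7.31%) and 0 lower (9.08%).

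The remaining TSA values were 5663 for Ccna2, 12502 for Ccnb2, 8076 for Cks2 and 1209 for Cdc25c, and 1287 for Aurka, 4705 for Plk1, 3688 for Birc5 and 1264 for Bub1. Kif11 had 2635, Kif20a 4783, Tacc3 866, Top2a 4869, Mki67 3862, Cenpa 2014, Ube2c 696 and Foxm1 3226. Of these genes, Ccna2, Ccnb2, Cks2, Plk1, Birc5, Kif20a, Top2a and Foxm1 were higher with TSA than on any other 72 h array. Cdc25c, Aurka, Bub1, Kif11, Tacc3, Mki67, Cenpa and Ube2c were within the range of those arrays. Cdk1, Cks1b, Aurkb, Cdc20 and Stmn1 were also higher than on those arrays, while Smc4 and Ect2 were lower. Incenp, Bub3, Mad2l1, Kif22, Kif23, Prc1 and Smc2 were higher than on those arrays too. The share of all genes that were highest with TSA was not counted, so these positions are given as values only. Cks1b at 72 h had 3768 with IL-12 and 5249 with IFNa/b, both below its TSA value.

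**Figure D5:**
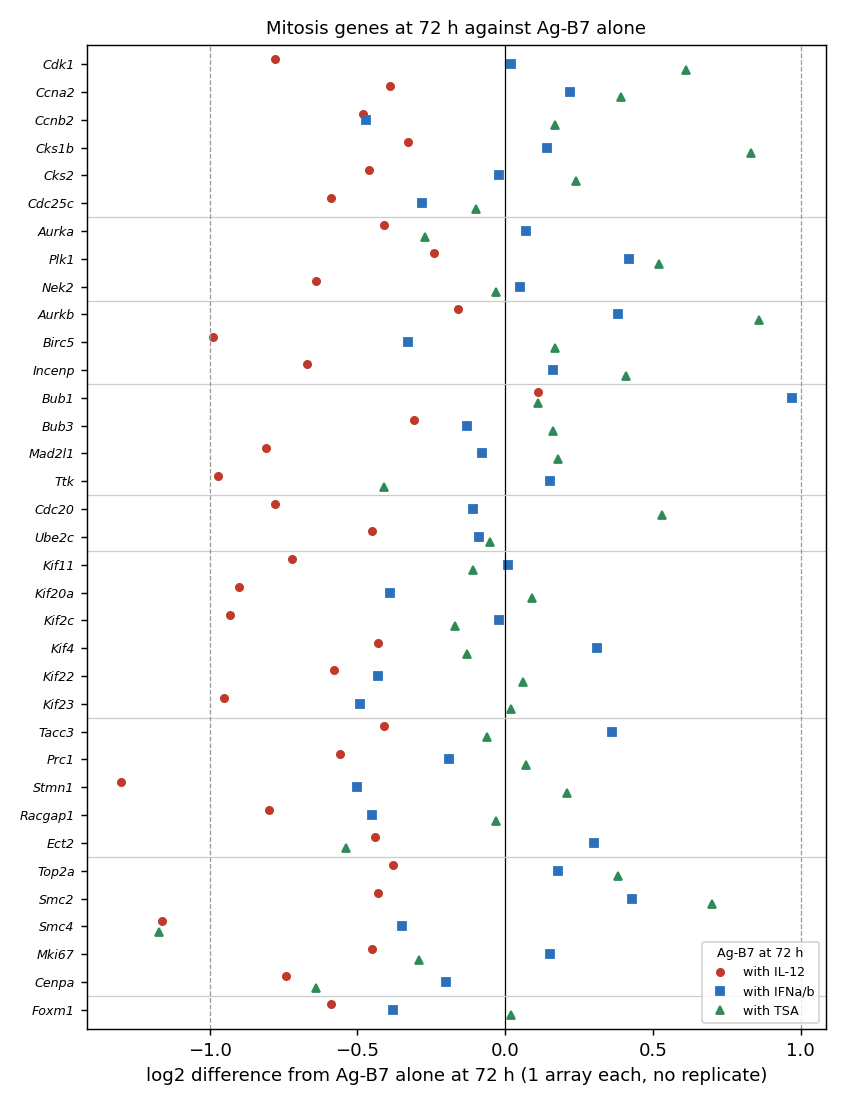
Differences from Ag-B7 alone at 72 h (x axis, log2 scale, dashed lines at 2-fold) for the 35 genes, with 1 array per culture and so no error bars, for IL-12 (red circles), IFNa/b (blue squares) and TSA (green triangles). The red circles lie left of 0 for 34 of 35 genes, with Stmn1 and Smc4 past 2-fold, and the green triangle of Smc4 is also past 2-fold.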

How the data were processed

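RNA of 20 samples of mouse CD8 T cells was read on 1 Affymetrix array each. The deposited values are MAS5 signal intensities, per the labels. The software's MAS5 version is not given in the sources used here. For each array, the mean intensity after trimming 2% at each end lay between 1000.46 and 1000.74, so arrays were already scaled to a common mean. No 2 arrays held identical values. Arrays limit the precision through their number.

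Of 12488 probe sets, 10833 carried 1 gene symbol, 396 several and 1259 none or were controls. GEO's platform annotation named the genes, and 10817 of the single-symbol probe sets matched a current gene by ID. Each gene was read from its probe set with the highest mean. Genes above the 40th percentile of an array on at least 3 of the 13 replicated arrays were kept, 6279 in all. Values were log2(intensity + 46.4), where 46.4 is the median over arrays of the 20th percentile. limma 3.58.1 in R 4.3.3 (lmFit, eBayes with trend) gave standard errors and p-values, adjusted by Benjamini-Hochberg over 6279 genes. One fit held the 13 replicated arrays in 4 groups (9 residual degrees of freedom), another the 16 stimulated arrays without TSA with time and stimulus (11 residual degrees of freedom). The scripts were tested on simulated data. A 2-fold difference was the limit for single arrays.

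Same-numbered arrays of IL-12 and Ag-B7 cultures at 48 h deviated together from their group means (correlations of 0.28, 0.28 and 0.28), while other pairs of groups gave -0.10 to 0.27. Replicate number was tried as a block. Other alternatives were 2 other pseudocounts (21.1 and 165.9), quantile, median and spiked-in scaling, 2 other filters, the mean of all probe sets, fewer arrays and each replicate left out in turn. The mitosis genes and lists were chosen with earlier results of these data known. Values on every array were given for 14 genes fixed by name and for the largest called changes of each comparison. Genes not called against naive cells were named, as were those whose probe sets disagree.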

Additional observations from a re-analysis of the deposited data

How the results depend on the processing

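Of the mitosis genes called against naive cells at 48 h, 30 of 32 with IL-12, 29 of 30 with IFNa/b and 31 of 33 with Ag-B7 alone kept their call in each of 17, 17 and 18 alternatives. The number called ranged over the left-out replicates from 30 to 33 with IL-12, from 29 to 31 with IFNa/b and from 32 to 34 with Ag-B7 alone. Calls that were lost in some alternative were Racgap1 and Cenpa with IL-12, Nek2 with IFNa/b, and Ube2c and Racgap1 with Ag-B7 alone. Ube2c turned to 0.63 with Ag-B7 alone under spiked-in scaling, which moves the median of all genes to 1.30. With replicate number as a replicate block the counts were 33, 31 and 33, with Ube2c added as lower with IL-12, and the 48 h cytokine comparisons stayed at 0 mitosis genes called under each alternative run. Over all genes the block gave 33 higher and 7 lower for IFNa/b against Ag-B7 alone at 48 h, beside 26 and 1 without it, and moved no other count of higher or lower calls over all genes by over 1.5 times. For 48 h against 24 h, 4 genes were called. That count was 2 after quantile normalization, 2 without each stimulus in turn and 2 with only the arrays labelled replicate 1, 1 with spiked-in scaling and 2 to 4 over left-out replicates. Over all genes, quantile normalization gave 354 higher and 339 lower, spiked-in scaling 93 and 182, and only the arrays labelled replicate 1 287 and 262. Without Ag-B7 alone there were 202 and 109, without IL-12 128 and 74, and without IFNa/b 173 and 123. Fewer arrays enter the fits without a stimulus. For 72 h against 48 h, 16 genes were called, 7 with spiked-in scaling and 16 to 17 over left-out replicates. Past 2-fold at 72 h, IL-12 against Ag-B7 alone gave 2 genes, and 4 with the lower pseudocount, 6 after quantile normalization, 0 with spiked-in scaling and 1 with the mean of all probe sets. IFNa/b against Ag-B7 alone gave 0 genes, and higher 1 after quantile normalization, 1 after median centring and 3 with spiked-in scaling. TSA gave 1 lower gene against Ag-B7 alone, 8 higher against IL-12 and 0 against IFNa/b. With spiked-in scaling these were 2 higher and 0 lower, 5 higher, and 3 lower. The shares of all genes past 2-fold are given above for the deposited values only, so these changes have no such background. Spiked-in controls read 13.39 to 14.86 on naive arrays and 12.14 to 13.17 on the others (log2), so this scaling moves every gene. Other than where shown, the cause of these changes was not tested. Groups of 3 and 4 arrays and single arrays at 24 h and 72 h limit what can be detected.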
